A study of Rattus norvegicus with 56 samples.

Results

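Trimethylation of histone H3 at lysine 4 (H3K4me3) was compared between the sides of the brain in 13-month-old rats with intracerebral haemorrhage, in which blood escapes into the brain. The comparison used the deposited H3K4me3 peak list of the bleeding (ipsilateral) side, with 33661 peaks, and that of the contralateral side, with 33574 peaks. Together these were 67235 of the 1619269 peaks in the 16 lists of the series. Peaks with an overlap of at least 1 bp with any peak of the opposite list were called shared, and the rest one-sided.

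The study mapped H3K4me3, H3K9ac and H3K27me3 by chromatin immunoprecipitation and sequencing (ChIP-seq) on both sides at 13 and 21 months, and H3K9ac and H3K27me3 also in 21-month rats given plasma. Every group used here had the haemorrhage and received no agent, so the contralateral side of injured animals is the reference and no sham-operated or uninjured brain was compared. Each list pooled 2 ChIP libraries, called against 2 pooled input libraries of its own. The sample labels give neither strain nor sex, do not name the brain region, and do not say whether the 2 libraries came from separate animals or whether the sides and marks were taken from the same animals.

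H3K4me3 is written by the SET1 and MLL methyltransferases of the COMPASS and Trithorax complexes and marks the promoters of active and poised genes. H3K9ac marks active promoters and enhancers. H3K27me3 is written by Polycomb repressive complex 2, and promoters that carry it together with H3K4me3 are called bivalent. Brain tissue is a mixture of neurons, glia, vessels and, after a bleed, blood-derived cells. In such bulk tissue, more cells carrying a mark and more of the mark per cell cannot be told apart.

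Both H3K4me3 lists were of like depth. The ipsilateral list rested on 86748494 ChIP tags kept after removal of duplicates and the contralateral list on 91768484, each with 25% duplicates. The fragment length that the peak caller estimated, which is also the shortest peak it reported, was 144 bp on the ipsilateral and 133 bp on the contralateral side. The lists of the other marks were less even. H3K9ac had 69557 ipsilateral peaks from 19323327 tags (82% duplicates) and 93770 contralateral peaks from 46299770 tags (55% duplicates). H3K27me3 had 117866 ipsilateral peaks from 71635071 tags (23% duplicates) and 51805 contralateral peaks from 35621686 tags (52% duplicates). No list carries a value per library, so no value below has a spread between replicates and no test between the sides could be made. Intervals are 95% Wilson intervals and cover counting error only.

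One-sided peaks were numerous but small. Of the ipsilateral peaks, 11771 had no contralateral partner (35.0%, interval 34.5 to 35.5%), and of the contralateral peaks 10507 had no ipsilateral partner (31.3%, interval 30.8 to 31.8%). With equal numbers, the 33574 peaks of highest −log10 q-value in each list, 65.2% of ipsilateral and 68.7% of contralateral peaks were shared. These peaks held little of the marked sequence. The ipsilateral-only peaks covered 2.80 Mb of 29.5 Mb (9.49%), and the contralateral-only peaks covered 2.01 Mb of 27.1 Mb (7.42%). The median ipsilateral-only peak was 192 bp long (quartiles 158.5 and 255 bp) against 1091 bp for ipsilateral shared peaks. The median contralateral-only peak was 170 bp (quartiles 143 and 214 bp) against 933 bp for shared ones. Under 300 bp lay 83.5% of ipsilateral-only and 93.0% of contralateral-only peaks. Exactly at the shortest length the caller reports were 1253 ipsilateral-only (10.6%) and 1386 contralateral-only peaks (13.2%), while 0.402% and 0.538% of the shared peaks of each list had that length.

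The authors' fold enrichment, the ratio of the ChIP signal at a peak's summit to the local background, placed one-sided peaks low within their own lists. The median fold rank was the 24.6th percentile for ipsilateral-only peaks against 67.5 for shared peaks of that list, and the 25.8th percentile against 65.6 on the contralateral side. The median −log10 q-value was 4.13 and 3.85 for ipsilateral-only and contralateral-only peaks, and 80.7 and 65.3 for their shared peaks. The local background implied by pileup and fold lay at the lowest value of its list for 26.1% of ipsilateral-only and 34.1% of contralateral-only peaks, against 1.85% and 1.97% of shared peaks. The median summit pileup, in tags scaled within a list, was 21 at ipsilateral-only and 150 at ipsilateral shared peaks, and 20 and 130 on the contralateral side.

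The one-sided share did not fall evenly with rank. It was 65.5% in the lowest ipsilateral fold decile, rose to 75.9% in the decile from the 10th to the 20th percentile, was 50.2% from the 40th to the 50th, and was 12.8% and 1.40% in the next deciles up. Above the 70th percentile at most 0.119% of a decile's ipsilateral peaks were one-sided. On the contralateral side the same deciles gave 54.8%, 65.8%, 52.2%, 11.7% and 0.417%, with at most 0.0596% above the 70th percentile. The plot of one-sided share by decile shows this drop near the middle of both lists.

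**Figure D1:**
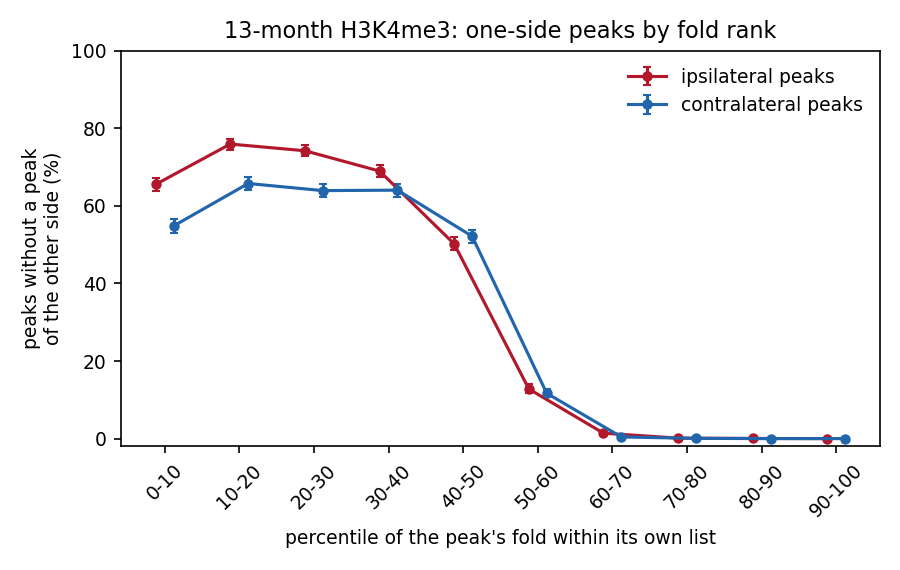
Share of 13-month H3K4me3 peaks with no peak of the other side (%, y axis) in each decile of the authors' fold within its own list (percentile, x axis), for the ipsilateral and contralateral lists; bars are 95% Wilson intervals for counting error. Both curves fall between the 40th and the 70th percentile, from 50.2% to 1.40% on the ipsilateral and from 52.2% to 0.417% on the contralateral side.

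In classes of fold, 70.3% of ipsilateral peaks with a fold under 3 were one-sided (5561 peaks), as were 67.9% with a fold of 3 to 4 (5296), 19.7% with 4 to 6 (858) and 0.412% with 6 or more (56). The contralateral shares were 59.5% (4512 peaks), 63.3% (5307), 15.7% (672) and 0.120% (16). The 56 and 16 strong one-sided peaks differed in shape. The ipsilateral ones ran from 169 to 3766 bp with a median of 605 bp, and 35 of them were 500 bp or longer. The contralateral ones ran from 133 to 404 bp with a median of 179 bp, and none reached 500 bp. An H3K9ac peak of the same side lay on 45 of the 56 ipsilateral ones (80.4%, interval 68.2 to 88.7%). All ipsilateral H3K4me3 peaks stood at 63.9%, and those with a fold of 6 or more at 97.7%. Of the 16 contralateral ones 2 had H3K9ac of their own side (12.5%, interval 3.50 to 36.0%). All contralateral peaks stood at 66.4%, and those with a fold of 6 or more at 98.8%. In the 21-month lists the shares of both groups lay close together. The 56 had a peak of their own side in 52 (92.9%) and of the other side in 45 (80.4%). The 16 had these in 15 (93.8%) and 12 (75.0%), with wide counting intervals (71.7 to 98.9% and 50.5 to 89.8%). Over all peaks with a fold of 6 or more the shares were 99.92% and 99.85% (ipsilateral list) and 99.96% and 99.93% (contralateral list). With the requirement that both peaks reach a −log10 q-value of 5, the counts of strong one-sided peaks were 103 and 22. A peak of the other side lay within 1 kb of 7 of the 56 and of 7 of the 16. The median distances were 21571.5 and 6123 bp. With a peak within 1 kb also counted as shared, the counts were 49 and 9.

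One-sided peaks of 1 kb or longer were found on the ipsilateral side alone. Of 11815 ipsilateral peaks of 1 kb or longer, 92 had no contralateral partner (0.779%). Of 10938 such contralateral peaks, 0 had no ipsilateral partner (0.00%). At 500 bp or longer the counts were 511 of 16976 (3.01%) and 69 of 16036 (0.430%). These length classes were chosen after the lists had been seen. The ipsilateral list as a whole also had longer peaks, with a median of 509 bp against 445 bp, and the part of this difference in the count of long one-sided peaks was not tested. The count of contralateral-only peaks of 1 kb or longer was 4 when both peaks had to reach a −log10 q-value of 5 and 1 when an overlap had to span at least 50% of the shorter peak, with 142 and 94 ipsilateral-only ones under the same settings.

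**Figure D2:**
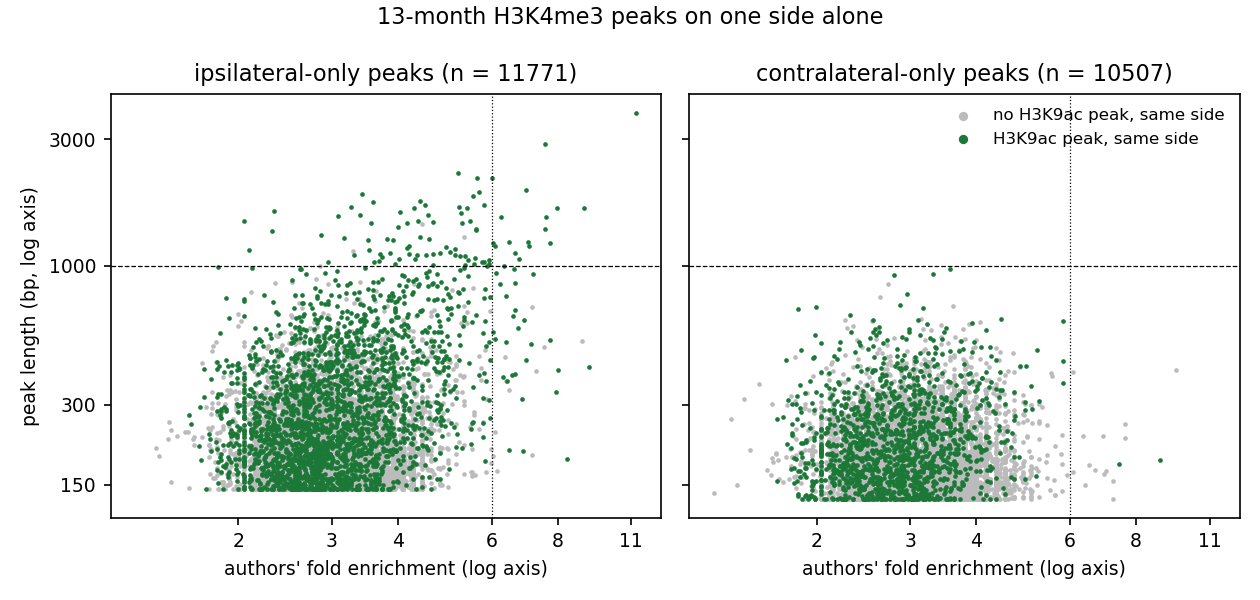
Length (bp, log axis) against the authors' fold enrichment (log axis) for the 11771 ipsilateral-only peaks (left) and the 10507 contralateral-only peaks (right) of 13 months; each point is a peak, green where an H3K9ac peak of the same side overlapped it, and the lines mark 1 kb and a fold of 6. Points above 1 kb occur in the left panel only, 92 of them, and 89 of these are green.

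The 92 long ipsilateral-only regions carried ipsilateral H3K9ac nearly as often as shared regions of their length, and contralateral H3K9ac less often. They measured 1002 to 3766 bp with a median of 1257 bp, and their folds ran from 2.05 to 11.3 with a median of 4.72. They lay on 21 chromosomes or scaffolds, with 11 on chromosome 1 and 2 on chromosome X. The nearest contralateral peak was a median of 18534.5 bp away. It lay within 1 kb for 14 regions and more than 10 kb away for 64. H3K9ac of the ipsilateral side overlapped 89 of them (96.7%, interval 90.8 to 98.9%), close to the 99.2% of shared ipsilateral peaks of that length. H3K9ac of the contralateral side overlapped 56 (60.9%, interval 50.7 to 70.2%), against 99.5% of shared ones. H3K9ac was thus on the ipsilateral side alone at 33 regions and on the contralateral side alone at 0. With the H3K9ac lists limited to equal numbers of peaks the counts were 43 and 0. The H3K9ac lists also differed in depth and duplicates, and the part of these in the counts was not tested. Among shared peaks of 1 kb or longer the corresponding counts were 49 and 82 of 11723.

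At the 56 long regions with an H3K9ac peak on both sides, its fold percentile within its own list, which holds a different number of peaks on each side, was higher on the ipsilateral side in 38 and on the contralateral side in 18. At shared ipsilateral peaks of 1 kb or longer with H3K9ac on both sides it was higher on the ipsilateral side in 33.5%. H3K27me3 was less frequent. It overlapped 18 of the 92 on the ipsilateral side (19.6%) and 21 on the contralateral side (22.8%), near the 20.0% and 18.0% of all ipsilateral H3K4me3 peaks. By combined state, 72 had H3K9ac without H3K27me3 on the ipsilateral side (78.3%, interval 68.8 to 85.5%), 17 had both, 1 had H3K27me3 alone and 2 had neither. Shared peaks of that length were split in nearly the same way, with 77.8% in the first state.

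The 21-month H3K4me3 lists came from other libraries and took no part in choosing these regions. At 21 months, 85 of the 92 had a peak on the ipsilateral side (92.4%, interval 85.1 to 96.3%) and 59 on the contralateral side (64.1%, interval 53.9 to 73.2%). Over all 13-month ipsilateral peaks these shares were 70.9% and 73.6%, and over shared ipsilateral peaks of 1 kb or longer 100% and 99.99%. Both 21-month sides had a peak at 58 regions, the ipsilateral side alone at 27, the contralateral side alone at 1, and neither at 6. Where both had one, the 21-month fold percentile was higher on the ipsilateral side in 40 regions and on the contralateral side in 18. For shared peaks of 1 kb or longer it was higher on the ipsilateral side in 38.8%, and the 21-month contralateral list was again the longer, with 35063 peaks against 30356. Most long regions that lacked a contralateral peak at 13 months thus had one at 21 months. The median fold of the 21-month peaks called there was 3.52 (contralateral) and 4.11 (ipsilateral).

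**Figure D3:**
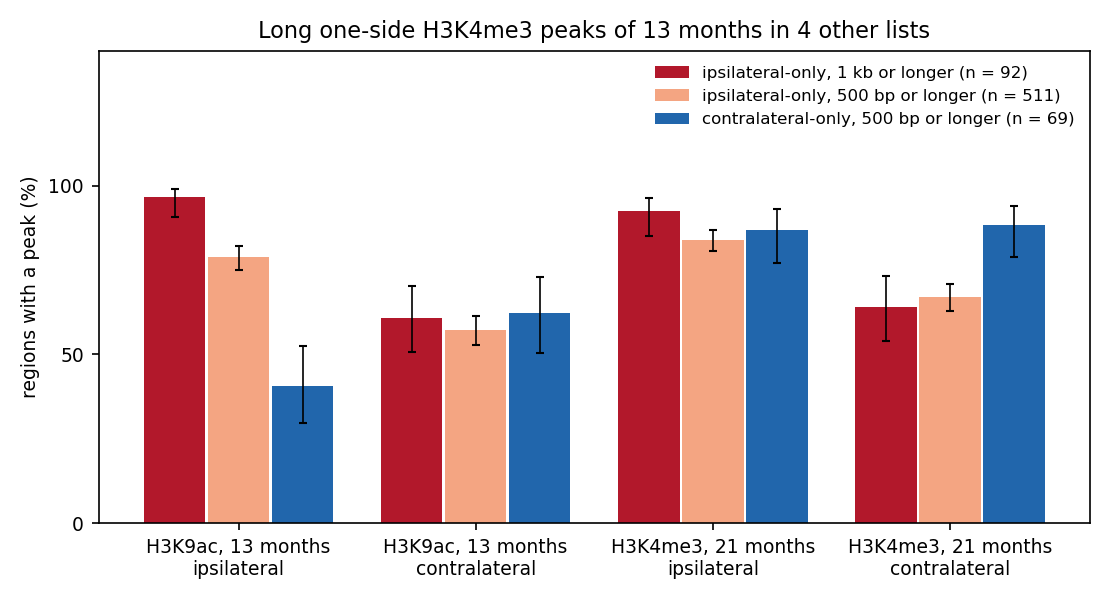
Share of long one-sided 13-month H3K4me3 peaks that overlap a peak (%, y axis) in each of 4 lists that did not choose them (x axis); bars are ipsilateral-only peaks of 1 kb or longer (n = 92) and of 500 bp or longer (n = 511) and contralateral-only peaks of 500 bp or longer (n = 69), with 95% Wilson intervals. Ipsilateral-only regions overlapped the ipsilateral lists more often (96.7% and 92.4% for 1 kb or longer) than the contralateral ones (60.9% and 64.1%). Contralateral-only regions leaned to their own side in H3K9ac (62.3% against 40.6%), as did shared contralateral peaks of 500 bp or longer (98.3% against 96.5%, not drawn). They were present on both sides about equally often in 21-month H3K4me3 (88.4% against 87.0%). The plot shows presence and not rank.

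At the lower length limit of 500 bp the same direction was seen for each side, less far apart. Of the 511 ipsilateral-only peaks, 403 had ipsilateral H3K9ac (78.9%, interval 75.1 to 82.2%) and 292 contralateral H3K9ac (57.1%, interval 52.8 to 61.4%), with 139 on the ipsilateral side alone and 28 on the contralateral side alone. Of the 69 contralateral-only peaks, 43 had contralateral H3K9ac (62.3%, interval 50.5 to 72.8%) and 28 ipsilateral H3K9ac (40.6%, interval 29.8 to 52.4%), with 17 and 2 on 1 side alone. Of 16465 shared ipsilateral peaks of that length, 96.3% had ipsilateral and 97.8% contralateral H3K9ac, and 168 and 416 had it there alone. Of 15967 shared contralateral peaks, 98.3% had contralateral and 96.5% ipsilateral H3K9ac, and 395 and 107 had it there alone. A contralateral lean was thus also present among shared peaks, and an ipsilateral lean was not. In the 21-month lists the ipsilateral-only group differed between sides in presence, and both groups differed from shared peaks in rank, towards their own side. The 511 had a 21-month peak in 84.0% of cases ipsilaterally and in 66.9% contralaterally. The 69 had one in 88.4% contralaterally and in 87.0% ipsilaterally, and 3 and 2 of them on 1 side alone. Shared peaks of that length had one in 99.9% on either side, in the ipsilateral and in the contralateral list. Where both sides had a 21-month peak, the 69 ranked higher on the contralateral side in 49 of 58 (84.5%), against 64.5% of shared contralateral peaks of that length. The 511 ranked higher on the ipsilateral side in 145 of 307 (47.2%), against 35.5% of shared ipsilateral peaks of that length.

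The one-sided peak of highest fold was the widest as well. It lay at chr13:55169887-55173652 on the ipsilateral side, 3766 bp long, with an H3K4me3 fold of 11.3 and 88767 bp from the nearest contralateral peak. Coordinates are those of the authors' lists, 1-based, on a genome build not given in the sources used here, so no gene is named for any region and the labelled tissue was not checked against cell type markers. Folds of a region in several lists are set side by side below without correction for depth. Over all peaks the median fold was 4.24 in the ipsilateral and 3.33 in the contralateral H3K9ac list, and 5.72 in the ipsilateral and 5.71 in the contralateral 21-month H3K4me3 list. In the H3K27me3 lists it was 2.84 (ipsilateral) and 3.45 (contralateral). At the chr13 region ipsilateral H3K9ac had a fold of 8.64 and contralateral H3K9ac was not called. H3K27me3 was called on both sides, at folds of 2.96 (ipsilateral) and 4.37 (contralateral). At 21 months H3K4me3 was called on both sides, at 5.94 and 3.83. The region thus carried peaks of all 3 marks on the side of the bleed and of H3K27me3 alone on the other.

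The other ipsilateral-only peaks of highest fold were mixed. The region chr9:9584251-9585893 (1643 bp, fold 8.95) had ipsilateral H3K9ac at 3.56 and ipsilateral H3K27me3 at 2.61, and neither mark on the contralateral side. Its 21-month H3K4me3 folds were 5.68 (ipsilateral) and 4.57 (contralateral). At chr7:122744098-122744512 (415 bp, fold 9.16) H3K9ac was called on both sides, at 4.58 and 2.39. The peak chr11:84800858-84801379 (522 bp, fold 8.87) had neither other mark, and a contralateral H3K4me3 peak lay 410 bp from it. At chr2:52718788-52718974 (187 bp, fold 8.33) the 21-month peak was on the contralateral side alone, at a fold of 10.5, the opposite of the side at 13 months.

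Among the widest ipsilateral-only peaks, chr16:20561202-20564086 (2885 bp, fold 7.56) had H3K9ac on both sides, at 3.83 and 3.06, and a 21-month H3K4me3 peak on the ipsilateral side alone, at 3.93. The region is an example of those one-sided at both ages. The other wide ones had H3K9ac and 21-month H3K4me3 on both sides, at a higher fold on the side of the haemorrhage each time. At chr8:60760063-60762300 (2238 bp, fold 5.18) H3K9ac stood at 8.90 and 5.53 on the ipsilateral and contralateral side. At chr14:43990681-43992827 (2147 bp, fold 6.00) it stood at 6.49 and 2.33, with 21-month H3K4me3 at 9.05 and 3.76. At chr6:126257315-126259449 (2135 bp, fold 5.64) it stood at 6.93 and 2.43, while 21-month H3K4me3 was nearly even, at 4.21 and 4.13.

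Other strong ipsilateral-only regions had H3K9ac on the ipsilateral side alone. These included chr3:1492287-1493931 (1645 bp, fold 7.98), with H3K9ac at 4.97 and 21-month H3K4me3 at 4.80 and 2.71 on the ipsilateral and contralateral side. At chr1:137261871-137262395 (525 bp, fold 7.74), H3K9ac stood at 7.65, and a contralateral H3K4me3 peak lay 372 bp away. The peak chr5:16857794-16858197 (404 bp, fold 7.99) had H3K9ac at 3.57. Of those with ipsilateral H3K27me3, chr1:81328161-81329687 (1527 bp, fold 7.58) had all 3 marks on the ipsilateral side and H3K9ac and H3K27me3 on the other, with H3K9ac at 7.70 and 4.35 and H3K27me3 at 2.02 and 3.09. At chr9:98877633-98878128 (496 bp, fold 7.53) H3K27me3 stood at 2.46 and 2.54 with no H3K9ac on either side.

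The strongest contralateral-only peaks were short and mostly without H3K9ac. The highest, chr4:6879187-6879590 (404 bp, fold 9.50), had H3K27me3 on both sides, at 2.34 and 2.65 on the contralateral and ipsilateral side, and no H3K9ac. Its 21-month peak was on the contralateral side alone, at 4.53, so it was one-sided at both ages. At chr11:82844658-82844842 (185 bp, fold 8.88) H3K9ac was on the contralateral side alone, at 4.95, and 21-month H3K4me3 on both, at 14.0 and 9.10. The peak chr1:61483455-61483634 (180 bp, fold 7.43) likewise had contralateral H3K9ac alone, at 2.92. The peaks chr6:139410122-139410374 (253 bp) and chr8:1362624-1362848 (225 bp) both had a fold of 7.61 and no H3K9ac. The first of these had H3K27me3 at 5.50 and 2.25 on the contralateral and ipsilateral side.

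The widest contralateral-only peaks had low folds and often a close neighbour on the other side. The widest, chr12:8047740-8048713 (974 bp), had a fold of 3.57 and an ipsilateral H3K4me3 peak 542 bp away. For chr3:4039396-4040329 (934 bp, fold 3.31) the distance was 189 bp, and for chr5:38793733-38794514 (782 bp, fold 2.95) it was 89 bp. The chr3 region had 21-month folds of 18.1 and 2.62 on the contralateral and ipsilateral side. At chr1:184301923-184302848 (926 bp) the fold was 2.79, and at chr13:55871924-55872775 (852 bp) it was 2.72, with H3K27me3 at 10.4 contralaterally and 8.04 ipsilaterally.

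Over all one-sided peaks the other marks were sparse. An H3K9ac peak of the same side overlapped 20.6% of ipsilateral-only peaks (interval 19.9 to 21.3%), and one of the other side overlapped 2351 of them, nearly the same number as the 2423 with ipsilateral H3K9ac, where 66.5% of all ipsilateral H3K4me3 peaks had contralateral H3K9ac. Of contralateral-only peaks 13.2% (interval 12.5 to 13.8%) had H3K9ac of their own side and 9.42% had it on the ipsilateral side, where all contralateral peaks stood at 62.4%. Shared peaks had same-side H3K9ac in 87.1% (ipsilateral list) and 90.6% (contralateral list).

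The gap between the sides in H3K9ac grew with fold for ipsilateral-only peaks. Those with a fold under 3 had ipsilateral and contralateral H3K9ac in 22.6% and 24.7%, and those of 3 to 4 in 15.1% and 13.7%. Those of 4 to 6 had it in 37.6% (interval 34.5 to 40.9%) and 26.2% (interval 23.4 to 29.3%), and those of 6 or more in 80.4% and 44.6%. Contralateral-only peaks showed no such rise. Their same-side and other-side shares were 18.4% and 12.4% under a fold of 3, 8.76% and 6.71% at 3 to 4, 12.9% and 10.9% at 4 to 6, and 12.5% and 6.25% at 6 or more. The groups were not matched for length. At a fold of 6 or more the median lengths were 605 bp (ipsilateral-only) and 179 bp (contralateral-only). Of the ipsilateral-only peaks there, 33 of the 35 of 500 bp or longer had ipsilateral H3K9ac, and 12 of the shorter ones. No contralateral-only peak of that fold reached 500 bp. Shared ipsilateral peaks of the same fold classes had ipsilateral H3K9ac in 54.9%, 66.5%, 82.4% and 97.8%. Ipsilateral-only peaks were thus below shared ones in every fold class, but they were also shorter. Their median lengths by class were 197, 182, 242 and 605 bp, against 304, 411, 665 and 1504 bp for shared ones. The part of length in these shares was not tested.

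**Figure D4:**
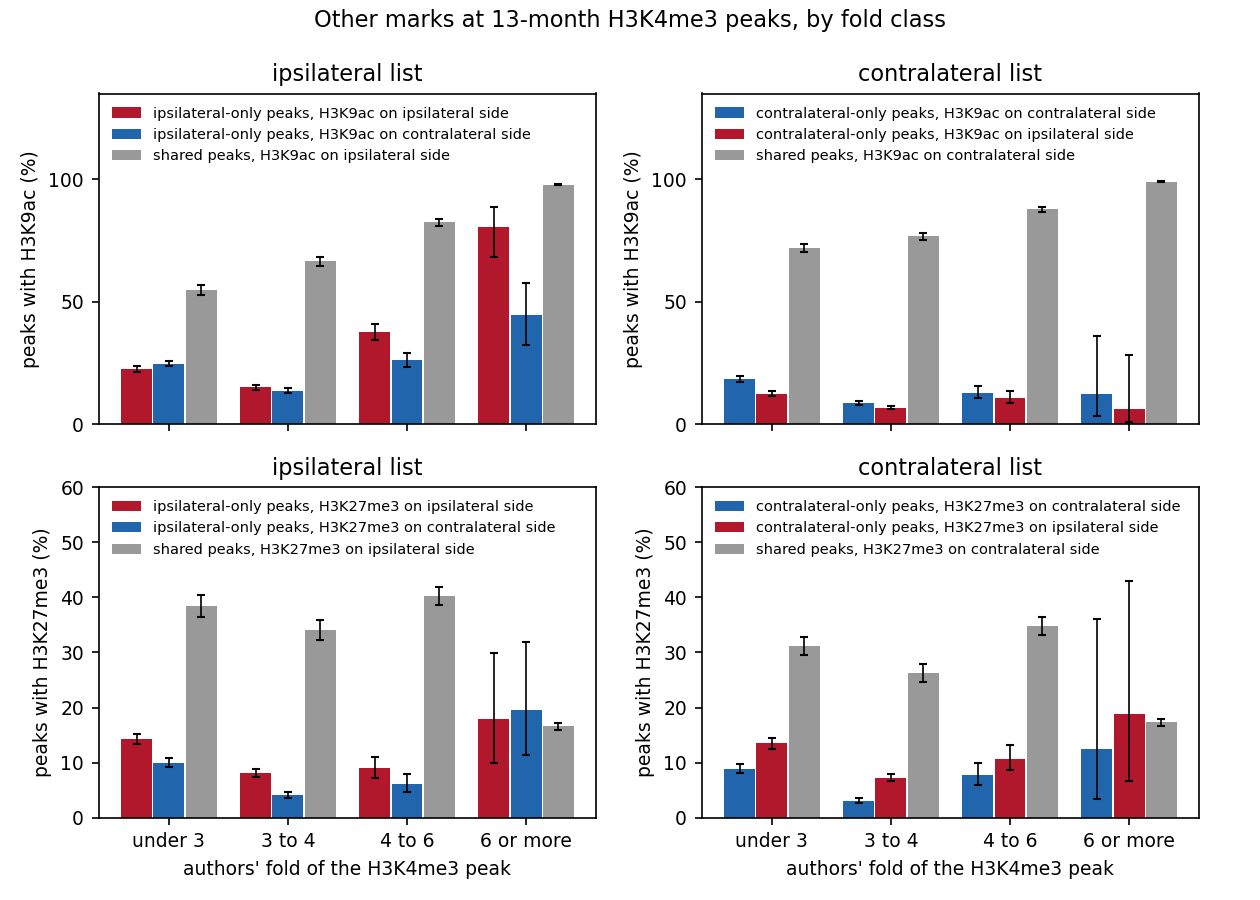
Share of 13-month H3K4me3 peaks that overlap an H3K9ac peak (upper panels) or an H3K27me3 peak (lower panels) in %, by class of the authors' H3K4me3 fold (x axis), for the ipsilateral (left) and contralateral list (right); coloured bars are one-sided peaks against the mark's list of either side, grey bars are shared peaks against their own side, with 95% Wilson intervals. Ipsilateral-only peaks of fold 6 or more had ipsilateral H3K9ac in 80.4% and contralateral H3K9ac in 44.6%. Contralateral-only peaks of that class (16 peaks) had contralateral H3K9ac in 12.5% and ipsilateral H3K9ac in 6.25%. Classes are not matched for length, with medians of 605 and 179 bp for these 2 groups.

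H3K27me3 was called at one-sided peaks more often on the ipsilateral side, whichever side the H3K4me3 peak was on. It overlapped 11.2% of ipsilateral-only peaks on the ipsilateral side (interval 10.6 to 11.8%) and 7.09% on the contralateral side. Contralateral-only peaks had it in 5.88% on their own side (interval 5.45 to 6.35%), where all contralateral peaks stood at 17.7%, and in 10.2% on the ipsilateral side, where all stood at 19.6%. The ipsilateral H3K27me3 list was the longer. With equal numbers of H3K27me3 peaks on each side the ipsilateral-only share was 7.54%. Shared peaks had same-side H3K27me3 in 24.7% and 23.1% on the ipsilateral and contralateral side.

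By the combined state on the same side, 8310 ipsilateral-only peaks had neither other mark (70.6%, interval 69.8 to 71.4%). H3K9ac alone was at 2145 (18.2%), H3K27me3 alone at 1038 (8.82%) and both, the pattern called bivalent where the marks lie in the same cells, at 278 (2.36%). Of contralateral-only peaks, 8687 had neither (82.7%), 1202 had H3K9ac alone (11.4%), 436 had H3K27me3 alone (4.15%) and 182 had both (1.73%). Among shared ipsilateral peaks neither was found in 8.10%, H3K9ac alone in 67.2% and both in 19.9%. The contralateral shared values were 7.03%, 69.9% and 20.7%.

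The state of a one-sided peak went with its presence at 21 months. Of ipsilateral-only peaks, 22.4% had a 21-month peak on the ipsilateral side (interval 21.6 to 23.1%) and 27.1% on the contralateral side. Of contralateral-only peaks, 21.9% had one on their own side (interval 21.1 to 22.7%), where all contralateral peaks stood at 74.6%, and 14.4% on the ipsilateral side, where all stood at 71.1%. Both groups were thus found more often in the longer, contralateral list of 21 months. Split by state, 59.7% of ipsilateral-only peaks with H3K9ac alone had a 21-month peak of the same side, as did 68.7% with both marks, 27.1% with H3K27me3 alone and 10.6% with neither. The contralateral-only values were 86.0%, 97.8%, 44.5% and 10.3%. All peaks showed the same order, at 93.9%, 97.5%, 57.6% and 22.9% (ipsilateral list) and 98.9%, 99.9%, 70.2% and 22.1% (contralateral list). The median length of ipsilateral-only peaks also differed by state, from 181 bp with neither mark to 301.5 bp with both. The part of length in these shares was not tested. Shared peaks were found in the same-side list of 21 months in 97.0% and 98.6%.

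The largest group of one-sided peaks was isolated in its own list. Among ipsilateral-only peaks, 8794 lay more than 10 kb from any shared peak of that list (74.7%), and 12% of these had ipsilateral H3K9ac and 13.3% a 21-month ipsilateral peak. Within 1 kb of a shared peak lay 1667 (14.2%), and 48.4% of these had H3K9ac and 60.5% a 21-month peak. Contralateral-only peaks were split alike, with 8397 beyond 10 kb (79.9%, H3K9ac in 6.01% and 21-month peaks in 10.5%) and 1242 within 1 kb (11.8%, with 50.4% and 86.0%). Measured to the other side's list, 1907 ipsilateral-only (16.2%) and 1593 contralateral-only peaks (15.2%) had a peak of the other side within 1 kb, at median distances over all of 23007 and 29195 bp.

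One-sided peaks were spread over the autosomes more evenly than shared ones. Taking the highest peak end as the length of each chromosome, the 20 autosomes held 3.31 to 5.0 ipsilateral-only peaks per Mb (median 4.45) and 2.52 to 4.90 contralateral-only peaks per Mb (median 3.97). Shared peaks ran from 5.81 to 14.9 per Mb in the ipsilateral and from 6.08 to 15.7 per Mb in the contralateral list. The highest autosome thus exceeded the lowest 1.51 times and 1.94 times for one-sided peaks and 2.57 times and 2.58 times for shared peaks. The one-sided share was lowest on chromosome 12, at 21.3% ipsilateral and 15.4% contralateral, and highest on chromosome 13, at 45.1% and 44.0%. Across the 20 autosomes the 2 sides' shares had a Spearman correlation of 0.953. With the density of shared peaks the shares had correlations of -0.929 (ipsilateral) and -0.944 (contralateral). Shared peaks enter the share of either side, so none of these 3 values is free of them. The density of one-sided peaks per Mb had correlations of -0.0872 (ipsilateral) and -0.549 (contralateral) with that of shared peaks.

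Chromosome X stood apart. It held 124 ipsilateral-only peaks of 805 (15.4%) and 104 contralateral-only peaks of 829 (12.5%). That was 0.776 and 0.650 per Mb, so the autosomal median was 5.74 times and 6.10 times higher. For shared peaks, at 4.26 and 4.53 per Mb on X, the autosomal median was 1.81 times and 1.77 times higher. Sex is not given in the labels, and its part in this was not tested.

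**Figure D5:**
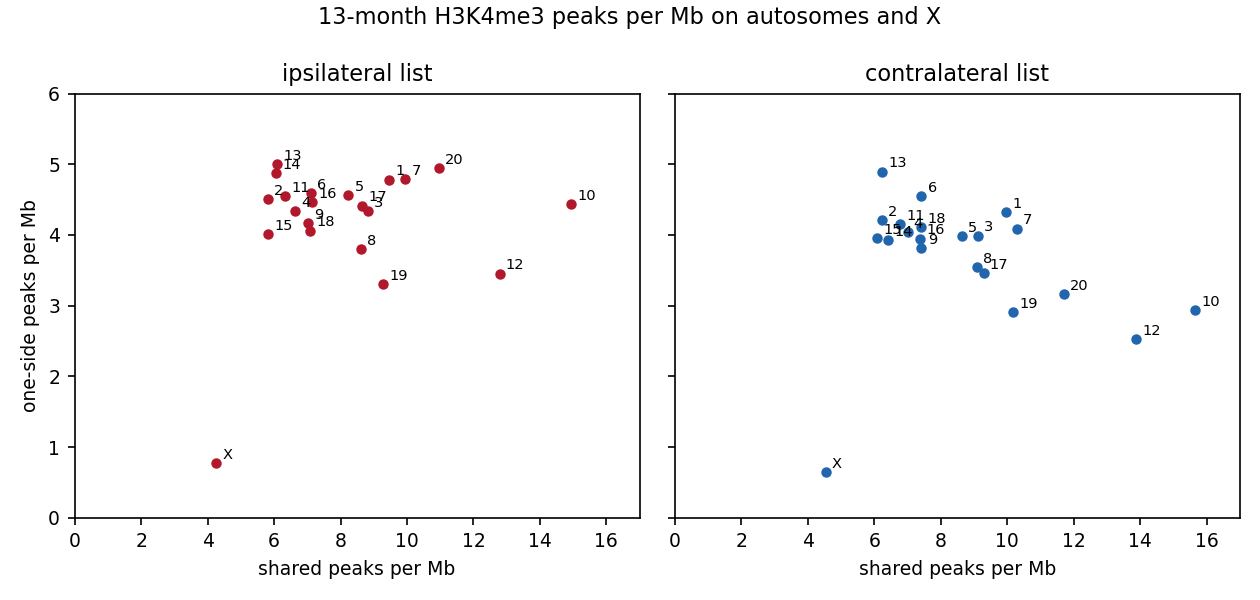
One-sided 13-month H3K4me3 peaks per Mb (y axis) against shared peaks per Mb (x axis), 1 point for each of the 20 autosomes and X (labelled), for the ipsilateral (left) and contralateral list (right); lengths are the highest peak end on each chromosome. The autosomes lie between 3.31 and 5.0 (left) and between 2.52 and 4.90 (right) one-sided peaks per Mb, and X lies far below them, at 0.776 and 0.650.

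Some windows held many one-sided peaks of both sides. Of windows of 1 Mb, chr6:140000001-141000000 had the highest number on either side, with 36 ipsilateral-only and 53 contralateral-only peaks beside 25 and 27 shared ones, and its neighbour chr6:141000001-142000000 had 22 and 28. The window chr13:16000001-17000000 had 26 and 24 with 4 shared ones in each list. The window chr1:60000001-61000000 had more on the ipsilateral side, with 28 ipsilateral-only and 11 contralateral-only peaks. The median window with any held 4. No one-sided peak in these 4 windows overlapped H3K9ac of its own side. Over all one-sided peaks the share was also low, at 20.6% (ipsilateral-only) and 13.2% (contralateral-only).

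Among shared peaks the sides were close. There were 19087 pairs in which 1 ipsilateral peak overlapped 1 contralateral peak and no other, 56.7% of the ipsilateral and 56.9% of the contralateral list. The median log2 ratio of the ipsilateral to the contralateral fold was 0.05 (5th to 95th percentile of pairs -0.68 to 0.82). The median distance between summits was 29 bp, and the ipsilateral peak was a median of 1.04 times as long. The fold percentile differed by a median of 8.77 points. It was more than 30 points higher on the ipsilateral side in 841 pairs and on the contralateral side in 497. Likewise, the ipsilateral peak was at least 2 times as long in 769 pairs and the contralateral one in 246. Most of these large differences were in pairs with a mean fold under 6. In the 11641 pairs with a mean fold of 6 or more, 93 ranked over 30 points higher ipsilaterally and 66 contralaterally.

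The pairs with the largest rank difference in favour of the ipsilateral side are given with their folds in the other lists. At chrX:22246878-22247915 the H3K4me3 fold was 11.8 ipsilaterally and 2.83 contralaterally, H3K9ac was 6.28 and 3.50, and 21-month H3K4me3 was 5.86 and 5.59. At chr19:19395633-19396877 H3K4me3 was 8.78 and 2.25 and H3K9ac 8.74 and 2.64. At chr3:14698813-14699452 H3K4me3 was 7.99 and 2.04, with H3K9ac at 7.71 on the ipsilateral side alone, yet at 21 months the contralateral fold was the higher, 14.8 against 3.85. At chr1:142665951-142666784 (7.89 and 2.14) and chr8:2605084-2606359 (6.61 and 1.73) H3K9ac was 4.87 and 3.55 at the first, and 5.10 on the ipsilateral side alone at the second. The H3K9ac fold was higher on the ipsilateral side, or H3K9ac was called there alone, at all 5, as it was at 48.2% of the 19087 pairs. The 21-month fold was higher on the ipsilateral side at 3 of the 5, as it was, or the peak was there alone, at 14.4% of all pairs.

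The 5 pairs furthest in the other direction had contralateral peaks of 274 to 1064 bp, where the ipsilateral peaks of the first 5 pairs measured 640 to 1276 bp. At chr18:12639761-12640034 the contralateral fold was 5.86 and the ipsilateral 2.02. There H3K9ac was on the contralateral side alone, at 3.90, H3K27me3 was 8.35 and 4.57, and 21-month H3K4me3 was 9.76 and 1.91. At chrX:135038641-135039126 H3K4me3 was 5.98 and 2.25 on the contralateral and ipsilateral side, H3K9ac was on the contralateral side alone, at 5.62, and 21-month H3K4me3 was 32.5 and 5.75. At chr10:10437397-10437788 H3K4me3 was 5.85 and 2.24, and H3K9ac was 7.92 and 5.04. The remaining pairs went the other way in H3K9ac. It was on the ipsilateral side alone at chr11:72351005-72351532 (H3K4me3 5.98 and 2.22) and higher there, 6.02 against 2.60, at chr1:122409199-122410262 (H3K4me3 7.13 and 2.54).

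The widest H3K4me3 domains were present on both sides. The widest ipsilateral peak, chr16:83822829-83831813, spanned 8985 bp, and its contralateral counterpart spanned 7412 bp. At chr14:55078240-55086401 the spans were 8162 and 8217 bp, with folds of 14.1 and 7.98 on the ipsilateral and contralateral side. At chr1:221152180-221159646 they were 7467 and 7383 bp, with folds of 12.7 and 13.1. The other widest ipsilateral peaks, chr4:8251830-8259311 (7482 bp, fold 17.4) and chr12:38869825-38877086 (7262 bp), and contralateral peaks, chr14:108824503-108831471 (6969 bp) and chr15:67552652-67559254 (6603 bp), were shared as well.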

How the data were processed

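ChIP-seq peak lists of 13-month ipsilateral and contralateral rat brain were analysed, with the 21-month H3K4me3 lists for comparison: 8 of the 16 deposited lists. Libraries were sequenced as paired ends, per the labels' protocols. Peaks were called by the authors with MACS 2.1.1.20160309 in narrow mode, with paired-end mode off, a q-value cutoff of 0.05, an effective genome size of 2.7 Gb and at most 1 tag per position, on 2 pooled ChIP and 2 pooled input libraries a list, per the file headers. cutadapt, Bowtie2 and HOMER are named in the submitters' processing notes without versions or roles. No genome build is named (not given in the sources used here).

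For each peak the authors' deposited lists give start, end and summit positions, the pileup (a signal or coverage value scaled within a list and therefore not compared between lists), the fold enrichment (a ratio to local background), and −log10 p-value and −log10 q-value, of which the q-value alone was used. Folds were ranked as percentiles within a list. The local background was computed as (pileup + 1) divided by fold, minus 1. Calling on pooled libraries removes any spread between replicates, and a weak region can pass the cutoff in 1 list and miss it in the other.

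Overlaps and intervals were calculated in Python (3.11.15) using pandas 2.3.3, numpy 2.4.6 and scipy 1.17.1, and figures drawn with matplotlib 3.10.9. On simulated data made from 33661 real peak positions, 100.0% of kept peaks were found again, and 0 of 856 overlaps checked by brute force differed. Shares carry 95% Wilson intervals. Regions were named by rule: for each side the 5 one-sided peaks of highest fold, the 5 widest, and the 5 of highest fold with H3K9ac on the same side alone or with H3K27me3, the 5 widest peaks of each list, the 5 pairs with the largest rank difference in each direction, and the 3 windows of 1 Mb with most one-sided peaks. The comparison, the rules and the alternatives were chosen with earlier results of these data known. Gene and cell type lists were left out, since the annotation at hand belongs to another build. No test was made, as each group is 1 pooled list. Alternatives changed the threshold, the overlap and the number of peaks entered.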

Additional observations from a re-analysis of the deposited data

How the results depend on the processing

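No paired analysis was possible because the 2 libraries of each group were pooled before peaks were called and the lists carry no value per library. Leaving out a replicate could not be run for the same reason. Of the values recomputed, none reversed, but the order of the sides in the 21-month share did (below). The windows and pairs were not recomputed. Equal numbers of H3K4me3 peaks per side left shares, lengths, ranks and mark shares within their counting error, as did leaving out unplaced scaffolds. Filters on strength moved most values. With a −log10 q-value of 5 or more on both sides, 79.4% of ipsilateral and 85.1% of contralateral peaks were shared, one-sided peaks had median lengths of 234 and 184 bp, and their median fold ranks were 40.5 and 42.9. With peaks of fold 4 or more set against all peaks of the other side, the shares were 94.9% and 96.1%, the lengths 251.5 and 174 bp, the ranks 50.3 and 51.1, and the excess of ipsilateral-only over contralateral-only peaks 226 in place of 1264. With an overlap of at least 50% of the shorter peak the shares were 64.1% and 67.5%. With a peak within 1 kb also counted, they were 70.7% and 73.4%, and the lengths were 189 and 167 bp. H3K9ac within 1 kb was at 29.2% of ipsilateral-only and 19.3% of contralateral-only peaks, and H3K27me3 within 1 kb at 19.0% and 10.8%. With the second mark's lists cut to the same length on both sides, contralateral-only peaks had H3K9ac in 11.7% and ipsilateral-only peaks had H3K27me3 in 7.54%. The 21-month share of the same side was 28.3% and 25.0% with equal numbers per side and age, and 20.4% and 20.8% with an overlap of at least 50% of the shorter peak, where the contralateral-only share became the higher. At the ipsilateral-only peaks of 1 kb or longer, contralateral H3K9ac was at 50% with equal lists of that mark, in place of 60.9%, and at those of 500 bp or longer at 49.5%, in place of 57.1%. The alternatives for the marks of long regions were chosen after the data were seen. The ipsilateral-only peaks of 1 kb or longer numbered 66 to 142 and the contralateral-only ones 0 to 4 over the settings. Median pileups near 20 scaled tags limit the precision of one-sided peaks.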
